A study of Mus musculus with 8 samples.

Results

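Pparg and 7 genes of fatty acid handling were followed in mouse bone marrow derived macrophages: Fabp4, Fabp5, Cd36, Plin2, Angptl4, Pdk4 and Cpt1a. The genes were chosen by name, as the non-control probes that carry their symbol, with the brightest probe of each gene as its main measure. All 8 were on the array and all 8 passed the filter on dim probes, among 18004 genes tested. In floxed cells given tamoxifen, Fabp4 ended day 3 at 5.23 times, Fabp5 at 2.38 times and Pparg at 1.85 times its ratio in floxed cells without tamoxifen. In control cells, the change with tamoxifen passed for 0 of the 8, and for 0 of all 18000 genes compared there. The test was limma with Benjamini-Hochberg adjustment over all genes. By limma, the difference between the genotypes' tamoxifen effects passed for Fabp4 and Pparg but not for Fabp5 (adjusted p = 0.0854). The Pparg ratio was lower in floxed than in control cells without tamoxifen (-0.74, adjusted p = 0.0371). With tamoxifen its genotype difference did not pass (0.27, adjusted p = 0.135).

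PPAR-gamma, the protein of Pparg, is a nuclear receptor that binds fatty acids and their derivatives and pairs with a retinoid X receptor on DNA. In macrophages and adipocytes its known targets include genes for fatty acid uptake, for carrying fatty acids in the cytosol and for storing them in lipid droplets, and Fabp4 and Cd36 are textbook examples. Other members serve fuel use: Angptl4 is a secreted inhibitor of lipoprotein lipase, Pdk4 switches off pyruvate dehydrogenase and Cpt1a commits fatty acids to oxidation in mitochondria.

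The study measured cytoplasmic RNA in 2 biological experiments on 8 dual-colour Agilent arrays. Each array compared day 3 cells, grown with the macrophage growth factor CSF-1, with day 0 cells of the same genotype and experiment, so each value below is a log2 ratio of day 3 over day 0 unless a level is named. The 4 groups, of 2 arrays each, were ERT2 Cre control cells without and with tamoxifen, and ERT2 Cre Thoc5 (flox/flox) cells without and with tamoxifen, all on a C57BL/6 x B6:129 Ola background. Both genotypes carried ERT2 Cre, a recombinase that tamoxifen activates, and tamoxifen was given to day 3 cells only. Thoc5 encodes a subunit of the THO complex, which couples transcription to mRNA export. The promoter that drives the Cre, the number of mice behind an experiment and the dose of tamoxifen are not given in the sources used here. Each day 0 RNA went on 2 arrays, and the arrays of experiment 2 had their dyes swapped, so experiment, dye direction and slide cannot be told apart. With 2 experiments a group, the p-values speak for these 2 only. For the ratios they measure the spread left once the shift between experiments that the groups share is taken out. That spread is pooled over the 4 groups and drawn towards that of all genes. It can be smaller than the spread between the 2 arrays of a group: Plin2 in control cells has an SD of 1.11 and an SE of 0.20.

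Promoter sequence was at hand for 5 of the 8 genes, in 7 windows from the RefSeq table on build GRCm38.p6, each running from 250 bases before to 50 bases after a start site. Fabp4, Fabp5 and Angptl4 are named only. The receptor half-site AGGTCA, searched on both strands, was present in 5 of the 7 windows and in 16.3% of all 32851 windows of 300 bases in the table. The direct repeat AGGTCANAGGTCA, which contains the half-site as an overlap, was in 0 of the 7 windows and in 0.0396% of all windows. The 2 windows of Pparg with a half-site are shown because Pparg is the receptor itself, and those of Plin2, Cd36 and Cpt1a because they are the other windows that held one. Capitals mark the half-site or its reverse complement.
Pparg, chr6:115360894-115361193, plus strand, half-site starting at -28: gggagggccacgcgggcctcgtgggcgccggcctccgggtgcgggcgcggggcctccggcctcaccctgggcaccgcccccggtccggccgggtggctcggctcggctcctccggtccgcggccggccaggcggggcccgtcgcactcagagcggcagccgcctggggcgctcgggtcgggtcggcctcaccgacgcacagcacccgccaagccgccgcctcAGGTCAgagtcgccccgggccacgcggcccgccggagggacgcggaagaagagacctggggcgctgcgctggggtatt
Pparg, chr6:115362099-115362398, plus strand, half-site starting at -9: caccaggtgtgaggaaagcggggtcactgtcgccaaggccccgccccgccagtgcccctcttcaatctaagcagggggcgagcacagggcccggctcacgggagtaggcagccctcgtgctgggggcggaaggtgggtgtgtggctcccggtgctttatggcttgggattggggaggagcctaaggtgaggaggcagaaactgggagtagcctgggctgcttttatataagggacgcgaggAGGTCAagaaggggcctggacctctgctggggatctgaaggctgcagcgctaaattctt
Plin2, chr4:86670010-86670309, minus strand, half-site starting at -218: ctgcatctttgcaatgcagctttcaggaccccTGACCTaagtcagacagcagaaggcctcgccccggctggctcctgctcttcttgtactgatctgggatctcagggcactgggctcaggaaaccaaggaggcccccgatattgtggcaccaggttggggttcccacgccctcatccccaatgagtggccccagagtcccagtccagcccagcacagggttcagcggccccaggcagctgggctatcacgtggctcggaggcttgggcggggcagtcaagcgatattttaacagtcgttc
Cd36, chr5:17835847-17836146, minus strand, half-site starting at -228: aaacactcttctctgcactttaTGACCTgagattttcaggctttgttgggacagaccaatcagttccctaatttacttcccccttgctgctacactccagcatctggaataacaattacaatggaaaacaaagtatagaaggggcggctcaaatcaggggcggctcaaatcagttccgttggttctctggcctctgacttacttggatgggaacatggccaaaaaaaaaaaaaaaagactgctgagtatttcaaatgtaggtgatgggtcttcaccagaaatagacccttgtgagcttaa
Cpt1a, chr19:3323051-3323350, plus strand, half-site starting at -94: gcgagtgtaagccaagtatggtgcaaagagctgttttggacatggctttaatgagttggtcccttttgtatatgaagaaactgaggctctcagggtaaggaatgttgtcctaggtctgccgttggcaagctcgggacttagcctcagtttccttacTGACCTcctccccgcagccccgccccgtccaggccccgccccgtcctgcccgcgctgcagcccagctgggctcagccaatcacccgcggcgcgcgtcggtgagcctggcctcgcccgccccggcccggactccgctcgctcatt
The half-site reads in the direction of the gene in both Pparg windows and on the opposite strand in Plin2, Cd36 and Cpt1a. The third Pparg window and that of Pdk4 held no match. Positions count from the start site, and a match describes letters only.

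Across arrays, 51.2% to 57.9% of probes were well above background and 0 non-control spots were saturated. The targeted gene Thoc5 had ratios of -3.04 and -3.02 in floxed cells with tamoxifen. They were -0.74 and -0.77 in floxed cells without tamoxifen and -0.40 to -0.15 on the control arrays. Without tamoxifen, floxed cells were thus below control cells on both arrays, by -0.42 ± 0.10, which did not pass (limma, adjusted p = 0.073). Where its probe lies relative to the floxed exons is not given in the sources used here. The macrophage markers were all measured. Their summed day 3 level was 683000 to 747000 over all arrays against 423000 to 658000 at day 0. By gene, limma called 5 of 8 higher and 0 lower over time in control cells, and 4 and 0 with tamoxifen. In floxed cells it called 3 higher and 1 lower, and 6 and 2 with tamoxifen. Among all genes, 23.3% to 25.5% were higher and 33.4% to 34.1% lower in these comparisons. In bulk RNA, fewer cells of a type and less RNA per cell cannot be told apart.

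**Figure D1:**
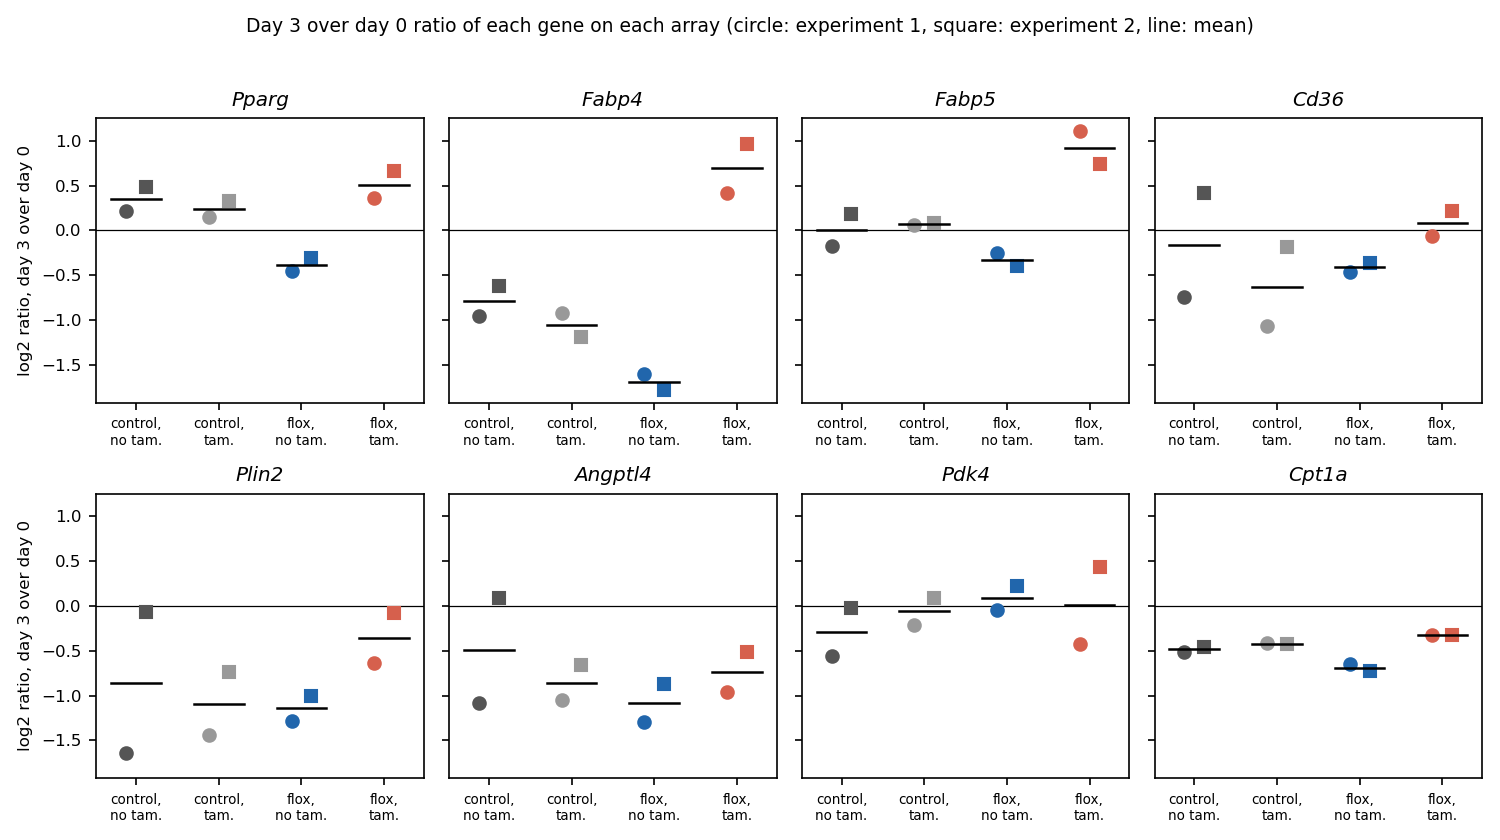
Log2 ratio of day 3 over day 0 for each of the 8 genes on each of the 8 arrays, by group (tam., tamoxifen), with the mean of the 2 arrays as a line. Fabp4 is above 0 in floxed cells with tamoxifen (0.42 and 0.97) and below 0 on the other 6 arrays, and Pparg is below 0 in floxed cells without tamoxifen only. The points of Pdk4 in control cells without tamoxifen were not well above background at day 3.

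Pparg, the receptor, is measured by a probe at chr6:115440213-115440272 (mm9, the build of the array design). Its ratios in experiments 1 and 2 were 0.22 and 0.49 in control cells, 0.15 and 0.33 in control cells with tamoxifen, -0.45 and -0.31 in floxed cells, and 0.36 and 0.66 in floxed cells with tamoxifen. Floxed cells without tamoxifen were the lowest group on both arrays and overlapped no other group, while control cells without tamoxifen overlapped both treated groups. The day 3 level was 11.62 ± 0.00 (SD, n = 2) in floxed cells and 12.56 ± 0.14 (SD, n = 2) with tamoxifen, as log2 intensity. In control cells the day 3 level was 12.66 ± 0.01 (SD, n = 2) and 12.52 ± 0.08 (SD, n = 2) with tamoxifen. The day 0 level ranged from 11.93 to 12.1 in floxed cells and from 12.13 to 12.44 in control cells. That day 0 difference did not pass (-0.27 ± 0.13, limma, adjusted p = 0.741). By limma, tamoxifen raised the Pparg ratio of floxed cells by 0.89 ± 0.10 (SE), 1.85-fold, with an adjusted p of 0.00648, and 4.03% of all genes changed by more. In control cells the change was -0.12 ± 0.10 (adjusted p = 1). The difference between these effects, 1.01 ± 0.14, passed with an adjusted p of 0.0427. Without tamoxifen, the Pparg ratio was lower in floxed than in control cells (-0.74 ± 0.10, adjusted p = 0.0371). With tamoxifen the ratios of the 2 genotypes differed by 0.27 ± 0.10 (adjusted p = 0.135). From day 0 to day 3, Pparg rose in control cells (0.36 ± 0.07, adjusted p = 0.0058), in control cells with tamoxifen (0.24 ± 0.07, adjusted p = 0.0259) and in floxed cells with tamoxifen (0.51 ± 0.07, adjusted p = 0.00118), and fell in floxed cells (-0.38 ± 0.07, adjusted p = 0.00425). Of these only the rise in floxed cells with tamoxifen kept its call in all 8 fits with 1 array left out. The others were lost without experiment 2 of control cells (0.0592), without either array of control cells with tamoxifen (0.229 and 0.146) and without experiment 2 of floxed cells (0.0891), all adjusted p. The tamoxifen call in floxed cells was lost without the experiment 2 array of floxed cells (0.83, adjusted p = 0.0609) or of floxed cells with tamoxifen (0.84, adjusted p = 0.0621). The difference of the effects kept its call in 1 of the 8 fits that leave out 1 array, that without experiment 1 of control cells (adjusted p = 0.0494), over a range of 0.95 to 1.06, and the genotype difference without tamoxifen kept it in 0 of 8, with adjusted p from 0.0648 to 0.242.

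Fabp4 encodes the fatty acid carrier of adipocytes and macrophages, and its probe lies at chr3:10204452-10204511. Its ratios were -0.96 and -0.62 in control cells, -0.92 and -1.19 in control cells with tamoxifen, -1.60 and -1.78 in floxed cells, and 0.42 and 0.97 in floxed cells with tamoxifen. Only the last group was above 0 on its arrays, and floxed cells without tamoxifen were below all other arrays. The order of the groups was floxed with tamoxifen, control, control with tamoxifen and floxed, and the 2 control groups overlapped. The levels show that the groups parted at day 3: they were 12.58 and 12.21 in floxed cells and 14.61 and 14.90 with tamoxifen. The day 0 levels of floxed cells were 14.18 and 14.19 on the arrays that share the RNA of experiment 1, and 13.99 and 13.93 in experiment 2. Tamoxifen raised the ratio of Fabp4 in floxed cells by 2.39 ± 0.21, 5.23-fold (limma, adjusted p = 0.00411), and 0.106% of all genes changed by more. In control cells the change was -0.27 ± 0.22 (adjusted p = 1). The difference between the effects was 2.65 ± 0.30 (adjusted p = 0.0265), with 1.98 in experiment 1 and 3.33 in experiment 2. With tamoxifen, the ratio of Fabp4 was 3.36-fold higher in floxed than in control cells (1.75 ± 0.22, limma, adjusted p = 0.00885). The mean day 3 levels there were 14.76 and 12.73. Without tamoxifen the ratios differed by -0.90 ± 0.22 (adjusted p = 0.077). From day 0 to day 3 Fabp4 fell in the 3 groups other than treated floxed cells, most in floxed cells (-1.69 ± 0.15, adjusted p = 0.000254), and rose in floxed cells with tamoxifen (0.70 ± 0.15, adjusted p = 0.00767). Without experiment 2 of the treated floxed cells that rise was 0.40 (adjusted p = 0.143), and without experiment 1 of control cells the fall there was -0.63 (adjusted p = 0.0653). The tamoxifen effect in floxed cells kept its call in all 8 fits that leave out 1 array, from 2.09 to 2.68. The difference of the effects kept it in 2, those without experiment 1 of control cells (2.81, adjusted p = 0.0302) or of floxed cells with tamoxifen (2.95, adjusted p = 0.0492), and otherwise ran from 2.35 to 2.91 with adjusted p up to 0.196. The genotype difference with tamoxifen was lost without control cells with tamoxifen of experiment 1 (adjusted p = 0.0785) or 2 (0.0704), or floxed cells with tamoxifen of experiment 2 (0.0504).

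Fabp5 encodes a second cytosolic fatty acid carrier, known from skin and macrophages, and its probe lies at chr3:10016185-10016244. Its ratios were -0.17 and 0.18 in control cells, 0.06 and 0.08 in control cells with tamoxifen, -0.25 and -0.40 in floxed cells, and 1.11 and 0.74 in floxed cells with tamoxifen. The treated floxed arrays were above the other 6, whose groups lay near 0 or below. Tamoxifen raised the ratio in floxed cells by 1.25 ± 0.17, 2.38-fold (limma, adjusted p = 0.011), against 0.06 ± 0.17 in control cells (adjusted p = 1). The difference between these effects, 1.19 ± 0.24, did not pass (adjusted p = 0.0854). With tamoxifen the ratio of floxed cells was higher than that of control cells by 0.85 ± 0.17 (limma, adjusted p = 0.0305). Median centring in place of loess ended that call (0.58, adjusted p = 0.119). It was also lost without any one of the 4 arrays compared. The call in floxed cells was lost without the array of floxed cells of experiment 1 (adjusted p = 0.0642) or 2 (0.0804), or of floxed cells with tamoxifen of experiment 1 (0.0619), the changes being 1.32, 1.17 and 1.03. The shared day 0 RNA of floxed cells in experiment 1 read 16.90 on one array and 16.45 on the other, and in experiment 2 it read 16.89 and 16.94. From the day 3 channel alone, the tamoxifen effect in floxed cells was 1.04 (adjusted p = 0.00694). A probe named Fabp5l2 followed Fabp5 over the 8 arrays with a Pearson correlation of 0.994, and whether near-identical copies share signal with the Fabp5 probe was not tested.

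Cd36 is the scavenger receptor that takes up long fatty acids and oxidised lipoprotein, with a probe at chr5:17288600-17288659. Its ratios were -0.74 and 0.42 in control cells, -1.07 and -0.19 in control cells with tamoxifen, -0.46 and -0.36 in floxed cells, and -0.06 and 0.22 in floxed cells with tamoxifen. The control groups were spread more widely between experiments than the floxed groups. No comparison of genotype or tamoxifen passed for Cd36, with 0.49 ± 0.26 for tamoxifen in floxed cells (limma, adjusted p = 0.31) and -0.47 ± 0.26 in control cells (adjusted p = 0.996). With 1 array left out these ran from 0.15 to 0.82 and from -0.84 to -0.11. Over time it passed in control cells with tamoxifen alone (-0.63 ± 0.18, adjusted p = 0.0238), a call lost without either array of that group (adjusted p = 0.285 and 0.0895).

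Plin2, whose protein coats lipid droplets, has its probe at chr4:86302847-86302906. The ratios were -1.64 and -0.07 in control cells, -1.44 and -0.74 in control cells with tamoxifen, -1.28 and -1.0 in floxed cells, and -0.64 and -0.08 in floxed cells with tamoxifen. Each array was below 0, and the treated floxed arrays lay above both untreated floxed arrays. By limma, Plin2 fell from day 0 to day 3 in control cells (-0.86 ± 0.20, adjusted p = 0.0108), in control cells with tamoxifen (-1.09 ± 0.20, adjusted p = 0.00401) and in floxed cells (-1.14 ± 0.20, adjusted p = 0.00336), and the change in floxed cells with tamoxifen was -0.36 ± 0.20 (adjusted p = 0.166). The tamoxifen effect in floxed cells was 0.78 ± 0.28 (adjusted p = 0.148) and in control cells -0.24 ± 0.28 (adjusted p = 1), with a difference of 1.02 ± 0.40 (adjusted p = 0.296). With 1 array left out the effect ran from 0.45 to 1.11 in floxed cells and from -0.76 to 0.29 in control cells. That in floxed cells was called without either array of control cells without tamoxifen (adjusted p = 0.0177) and with median centring in place of loess (0.73, adjusted p = 0.0359). Leaving out experiment 1 of control cells moved that difference to 1.54 (adjusted p = 0.0378), and the fall in control cells to -0.33 (adjusted p = 0.101). The falls with tamoxifen in control cells were lost without either of its arrays (adjusted p = 0.0552 and 0.0725), and that in floxed cells without experiment 2 (adjusted p = 0.0662).

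Angptl4, the secreted inhibitor of lipoprotein lipase, is measured at chr17:33911880-33911939. Its ratios were -1.08 and 0.09 in control cells, -1.05 and -0.66 in control cells with tamoxifen, -1.30 and -0.87 in floxed cells, and -0.96 and -0.51 in floxed cells with tamoxifen. One array, experiment 2 of control cells, stood above the others. Angptl4 fell by limma in all 4 groups, from -0.50 ± 0.14 in control cells (adjusted p = 0.0242) to -1.08 ± 0.14 in floxed cells (adjusted p = 0.00107). The fall in control cells was -0.12 (adjusted p = 0.357) without its experiment 1 array, that with tamoxifen -0.71 (adjusted p = 0.0711) without experiment 2, and that of floxed cells with tamoxifen -0.62 (adjusted p = 0.0744) without experiment 2. Tamoxifen changed the ratio by 0.35 ± 0.20 in floxed cells (adjusted p = 0.355) and by -0.36 ± 0.20 in control cells (adjusted p = 1).

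Pdk4, the kinase that shuts down pyruvate dehydrogenase, was dim at its probe (chr6:5433441-5433500). It was well above background on 4 of 8 arrays in each channel, and on 0 of 2 in the day 3 channel of control cells, so day 3 has only a bound there and no ratio is given. Its ratios were -0.21 and 0.09 in control cells with tamoxifen, -0.04 and 0.22 in floxed cells, and -0.42 and 0.43 in floxed cells with tamoxifen. Most of these ratios also rest on a dim channel. Day 0 was not well above background in experiment 2, nor was day 3 in experiment 1 of either group with tamoxifen. Only experiment 1 of floxed cells without tamoxifen had both channels well above background. These 3 groups overlapped, and 0 of the 10 comparisons called Pdk4, the tamoxifen effect in floxed cells being -0.09 ± 0.16 with a 95% interval of -0.47 to 0.30 (adjusted p = 0.81).

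Cpt1a, the enzyme that loads long fatty acids on carnitine, has 2 probes, at chr19:3385374-3385433 and chr19:3384060-3384119. Its brighter probe gave ratios of -0.51 and -0.46 in control cells, -0.41 and -0.43 in control cells with tamoxifen, -0.65 and -0.73 in floxed cells, and -0.33 and -0.33 in floxed cells with tamoxifen. All 8 arrays were below 0, floxed cells were lowest without tamoxifen and highest with it, and no 2 groups overlapped. Day 3 was lower than day 0 in each group, from -0.69 ± 0.07 (limma, adjusted p = 0.000356) to -0.33 ± 0.07 (adjusted p = 0.00635). The second probe went the other way, with day 3 higher in all 4 groups by 0.70 to 1.03 (adjusted p from 0.000944 to 0.00509), so the direction of Cpt1a over time depends on the probe. Tamoxifen changed the brighter probe by 0.36 ± 0.10 in floxed cells (adjusted p = 0.0701) and the second by 0.11 ± 0.19 (adjusted p = 0.786), and neither passed. Leaving out either array of floxed cells with tamoxifen ended the call of day 3 against day 0 there (adjusted p = 0.0948 and 0.0713), and in control cells with tamoxifen so did leaving out experiment 2 (adjusted p = 0.0509).

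**Figure D2:**
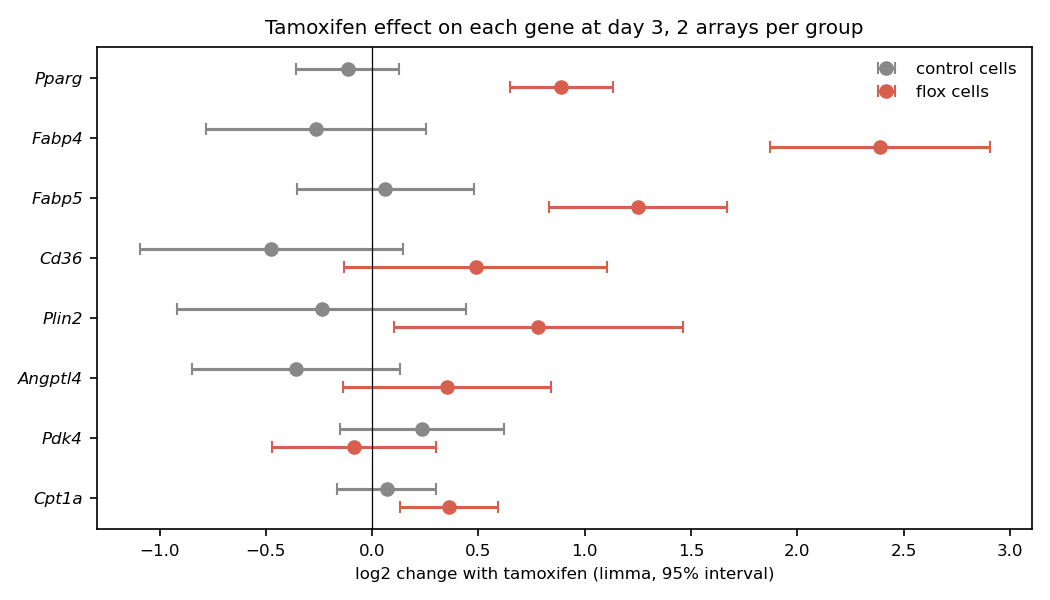
Log2 change of the day 3 over day 0 ratio with tamoxifen for each gene in control cells (grey) and floxed cells (red), with 95% intervals from limma, 2 arrays per group. The intervals for floxed cells lie above 0 for Pparg, Fabp4, Fabp5, Plin2 and Cpt1a, of which Pparg (0.89), Fabp4 (2.39) and Fabp5 (1.25) passed after adjustment over all genes, and every interval for control cells includes 0.

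The members were then set against all genes. They were chosen with earlier results of these data known, so the counts and medians below describe them and are no test of the set. With tamoxifen in floxed cells, 3 of the 8 genes rose and 0 fell, where 9.02% of all genes were called, 4.87% higher and 4.16% lower, and the median change of the 8 was 0.63 against -0.01 for all genes. In control cells 0 of the 8 were called, and 0% of all genes were; at an unadjusted p under 0.05 by limma there were 995 genes and 0 of the 8. The difference between the genotypes' responses was called for 2 of 8, both higher in floxed cells, against 1.14% of all genes (0.544% higher and 0.594% lower). Without tamoxifen, floxed and control cells differed for 1 of 8 (Pparg, lower), against 2.87% of all genes (1.44% higher and 1.43% lower). With tamoxifen they differed for 2 of 8 (Fabp4 and Fabp5, higher), against 11.3% (5.42% higher and 5.84% lower). At day 0 they differed for 0 of 8, against 0.339% (0.239% higher and 0.1% lower), and at an unadjusted p under 0.05 there were 0 of the 8 and 1498 of 18002 genes by limma. The day 0 RNAs are the references of each ratio compared between genotypes, and there 3 of 8 neutrophil markers (Mpo, Ctsg and Camp) were higher in floxed cells and 0 lower, with a median of 1.16 against -0.02 for all genes. The summed day 0 level of that list was 672000 to 785000 in floxed cells and 434000 to 538000 in control cells. Stromal (22500 to 28500 against 12000 to 16900), megakaryocyte (277000 to 306000 against 209000 to 249000), endothelial and dendritic cell sums were also higher in floxed cells without overlap. No marker of these lists was called at day 0, and the sums of the remaining lists overlapped. The part of these cells in the genotype comparisons was not tested. These comparisons share arrays and their tests are not independent.

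Over time, calls were common among all genes. Day 3 differed from day 0 for 5 of 8 genes in control cells (Pparg higher; Fabp4, Plin2, Angptl4 and Cpt1a lower), where 57.3% of all genes were called (23.3% higher and 34.1% lower). It did so for 6 of 8 in control cells with tamoxifen (Cd36 also lower), against 57.7% (23.9% higher and 33.8% lower). The counts were 5 of 8 in floxed cells (all lower), against 57.2% (23.8% higher and 33.4% lower), and 5 of 8 in floxed cells with tamoxifen (Pparg, Fabp4 and Fabp5 higher, Angptl4 and Cpt1a lower), against 58.9% (25.5% higher and 33.4% lower). These shares are near those of all genes. In floxed cells both arrays with tamoxifen lay above both without it for 6 of the 8 genes, namely Pparg, Fabp4, Fabp5, Cd36, Plin2 and Cpt1a, against 25.6% of all genes, and below them for 0, against 24.4%. In control cells they lay above for Cpt1a alone, against 11.7%, and below for 0, against 9.2%. The count for the difference of the effects ranged from 0 to 5 when 1 array was left out, with 5 without experiment 1 of control cells (adding Fabp5, Plin2 and Angptl4), 1 without experiment 1 of floxed cells with tamoxifen, and 0 without each of the other 6. Over all genes the first of these fits called 284, the second 24 and the other 6 from 0 to 139. The count for tamoxifen in floxed cells was 1 without experiment 2 of floxed cells, a fit that called 224 of all genes. The count over time was 2 without experiment 1 of control cells, 3 and 1 without experiments 1 and 2 of control cells with tamoxifen, 3 without experiment 2 of floxed cells and 2 without experiment 2 of floxed cells with tamoxifen, each in its own group. Between the genotypes with tamoxifen it was 0 without either treated array of control cells, where 0 and 26 of all genes were called, or without experiment 2 of treated floxed cells (258 of all genes), and 1 without experiment 1 of the latter (325 of all genes).

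**Figure D3:**
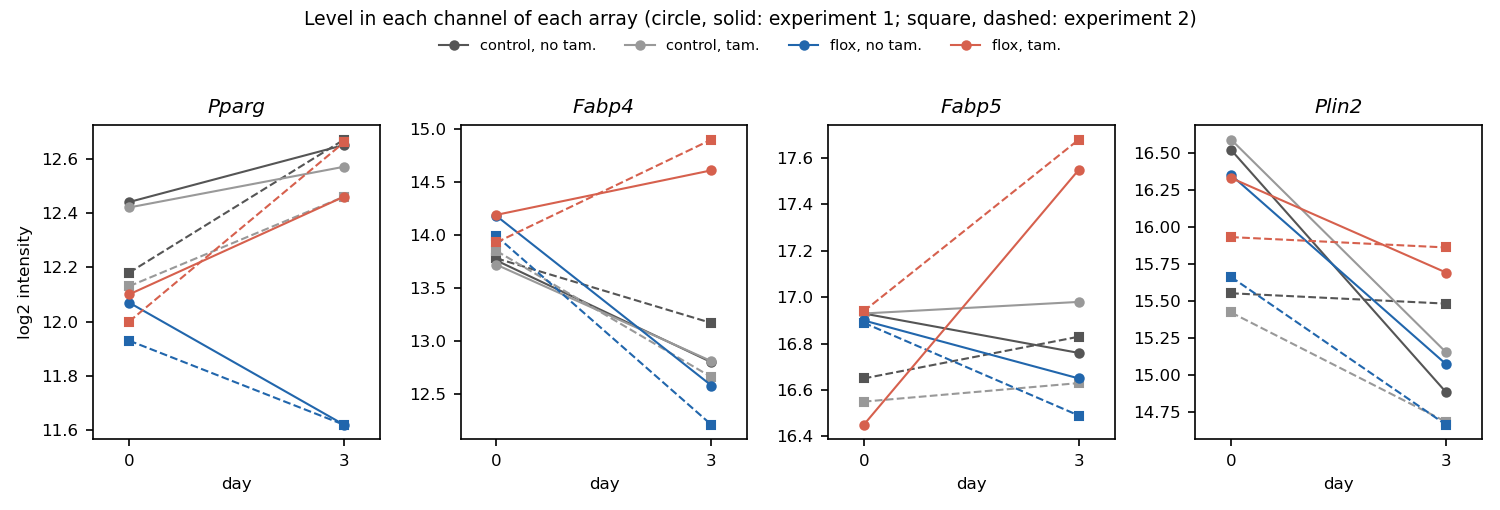
Log2 intensity of Pparg, Fabp4, Fabp5 and Plin2 in the day 0 and day 3 channel of each array, by group (tam., tamoxifen), with a line joining the 2 channels of an array. Fabp4 ends at 14.61 and 14.90 in floxed cells with tamoxifen and at 12.21 to 13.17 in the other groups, and Plin2 starts higher in experiment 1 (16.33 to 16.59) than in experiment 2 (15.42 to 15.93).

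The other genes of the pathway were counted from 6 lists with 108 genes in all. Tamoxifen in floxed cells raised 3 and lowered 1 of 13 tested genes of fatty acid uptake and activation (median 0.16), by limma adjusted over all genes. Among all genes 4.87% rose and 4.16% fell in that comparison, with a median of -0.01, and the counts of each list below stand beside those shares. Lpl, lipoprotein lipase, rose by 1.43 ± 0.33, 2.69-fold (adjusted p = 0.0489), a call that ended under 4 other settings and in 6 of 8 fits with 1 array left out. Slc27a1, a fatty acid transport protein, rose by 0.95 ± 0.18 (adjusted p = 0.0273), as did Scarb2, a lysosomal membrane protein (0.49 ± 0.09, adjusted p = 0.0274), and Acsl5, an acyl-CoA synthetase, fell by 0.65 (adjusted p = 0.0266). Of 5 tested binding proteins beyond the members, Fabp3 (heart type) rose by 0.96 ± 0.12 (adjusted p = 0.00888) and Fabp7 (brain type) fell by 1.63 (adjusted p = 0.0124), with 5 others of the list not tested as too dim. These genes moved in both directions within their lists.

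For lipid droplets and lipolysis, 2 of 15 tested genes rose with tamoxifen in floxed cells and 0 fell (median 0.36), namely Dgat2, which makes triglyceride (0.83 ± 0.12, adjusted p = 0.013), and Plin3, another droplet coat protein (0.46 ± 0.11, adjusted p = 0.047), by limma. For fatty acid oxidation, 4 of 29 rose and 1 fell (median 0.22). The acyl-CoA thioesterases Acot1 (1.32 ± 0.19, 2.50-fold, adjusted p = 0.0114) and Acot2 (0.75 ± 0.10, adjusted p = 0.00933) were the largest rises of that list, followed by the thiolase Acaa2 (0.58 ± 0.11, adjusted p = 0.0242), and Hsd17b4 of the peroxisome fell by 0.45 (adjusted p = 0.0471). Acot1 and Acot2 are close copies of one another, and their probes may share signal. Pdk2 rose among 12 genes of pyruvate dehydrogenase and its control (0.74 ± 0.12, adjusted p = 0.0193), and Pprc1 fell among 16 partners and coregulators of the receptor (-0.53 ± 0.11, adjusted p = 0.0367). The retinoid X receptor Rxra was not called. In the control cells 0 of these genes were called, and the difference between the genotypes' responses was called for 0 genes of the 6 lists, where Dgat2 had 0.89 ± 0.17 (adjusted p = 0.0748) and Acot1 1.16 ± 0.26 (adjusted p = 0.103). Each of the calls named here by limma was lost in at least 3 of the 8 fits with 1 array left out, with lowest and highest changes of 0.97 and 1.89 for Lpl and 1.10 and 1.55 for Acot1.

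Over time in control cells without tamoxifen, where 23.3% of all genes were higher and 34.1% lower, the lists moved in both directions. The test called 6 higher and 5 lower of 15 droplet and lipolysis genes, 4 and 8 of 29 oxidation genes, 1 and 4 of 13 uptake genes, 2 and 5 of 12 genes of pyruvate dehydrogenase, 3 and 2 of 16 receptor partners and 2 and 2 of 5 binding proteins. Bscl2, the seipin of droplet formation, rose by 1.25 ± 0.08 (limma, adjusted p = 7.04e-05) and Ucp3, a mitochondrial carrier, by 1.18 ± 0.11 (adjusted p = 0.000317). Pdk1, a sister kinase of Pdk4, fell by 1.54 (adjusted p = 7.04e-05), Dgat2 by 1.14 (adjusted p = 0.000139), Acot1 by 0.94 (adjusted p = 0.00138) and Slc27a1 by 0.84 (adjusted p = 0.00184). These 6 kept their calls in all 8 fits with 1 array left out. Some other called genes of the lists also kept theirs, among them Agpat2, Pdk3 and Ucp2. Others did not, among them Lpin1, Mgll, Lipa, Fabp3, Fabp7, Acsl3 and Rxra. The change ran from 0.23 to 1.46 for Lpin1 and from -1.47 to -0.38 for Mgll.

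**Figure D4:**
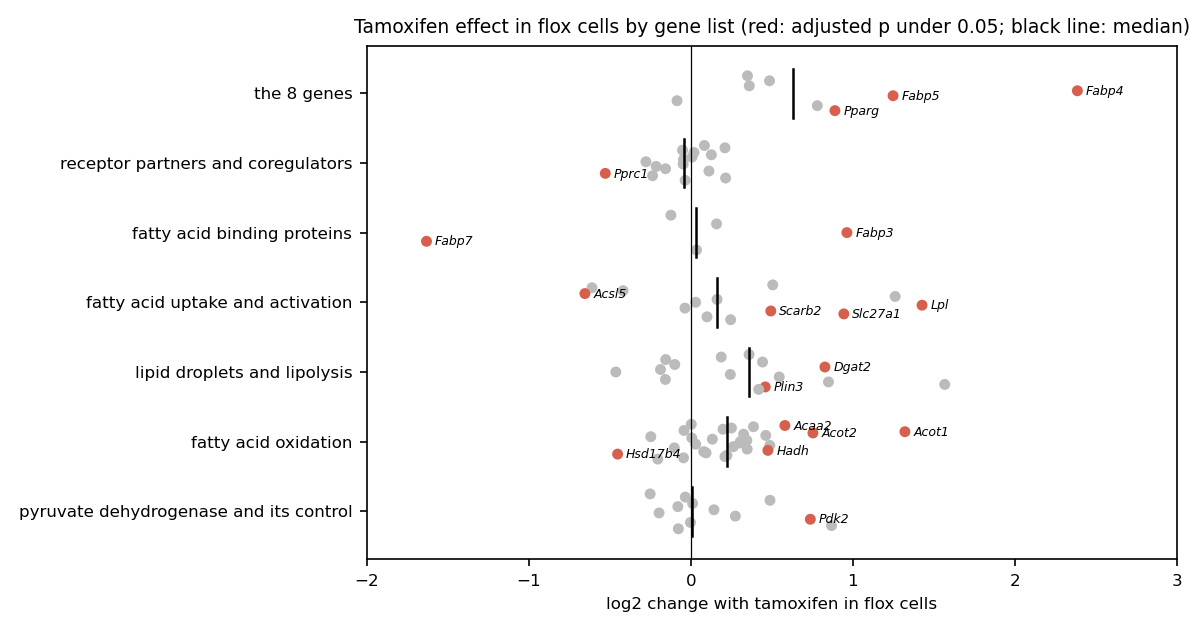
Log2 change with tamoxifen in floxed cells for the 8 genes and for the tested genes of the 6 pathway lists, one point per gene, with called genes in red and named and each median as a black line. Fabp4 (2.39) has the largest change shown, and the lists' medians run from -0.04 to 0.36 against 0.63 for the 8 genes.

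Markers of other cells were measured beside these changes. Of 7 adipocyte markers, 2 passed the filter and 0 changed with tamoxifen in floxed cells by limma. The summed level of these 2 at day 3 was 221 to 275 there against 276 to 300 without tamoxifen. Only 1 of the 2 was well above background at day 3 on each floxed array, so the sums are dim. Adipoq, Lep, Plin1, Cfd and Cidec were too dim to test. Of 6 tested endothelial markers, Vwf rose by 1.68 ± 0.23 (limma, adjusted p = 0.0101). Pecam1 fell by 1.45 (adjusted p = 0.0166) and Cdh5 by 0.94 (adjusted p = 0.0345). None of these calls held in every fit with 1 array left out. The changes then ran from 1.35 to 2 for Vwf, -1.7 to -1.2 for Pecam1 and -1.25 to -0.63 for Cdh5. With tamoxifen, Cdh5 was well above background on 1 of 2 floxed arrays at day 3. The summed level of the endothelial list was 4340 to 5030 against 3340 to 3400 without tamoxifen. Stromal markers summed to 16800 to 44000 against 11600 to 18500, with 0 of 6 called, and osteoclast markers to 47500 to 61300 against 76000 to 91400, with 3 of 6 higher and 1 lower. Of the other lists, tamoxifen in floxed cells raised 2 and lowered 1 of 8 macrophage markers and raised 1 of 3 dendritic cell markers. It lowered 2 of 7 megakaryocyte and 1 of 4 B lineage markers, where 4.87% of all genes rose and 4.16% fell. Day 3 sums were 964 to 998 against 477 to 593 for dendritic cell and 3500 to 4610 against 8160 to 9040 for B lineage markers. No neutrophil or erythroid marker was called. The part of these cells in the changes of the 8 genes was not tested.

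Over the 8 arrays, the genes most like Pparg by Pearson correlation of the ratios were Clec7a (0.971), Coro1c (0.967) and Ap3d1 (0.96). For Fabp4 these were an unnamed transcript and Eno2 (0.985 each) and Padi2 (0.983), and for Fabp5 they were probes of Fabp5l2 (0.994), of no named gene (0.986) and of LOC100045902 (0.984). The arrays share day 0 RNA in pairs, so the correlations describe these 8 arrays and carry no test.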

How the data were processed

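Cytoplasmic RNA was measured on 8 dual-colour Agilent arrays. Per the submitters' processing notes, the authors ran Agilent Feature Extraction 10.7.3.1. The authors' scanner output gives, per spot, an intensity for signal and for local background, as deposited, flags of 0 or 1 for spots above background, saturated or outlying, and log10 of red over green. In the authors' value table log10 values run as day 3 over day 0, and the scanner output matches them to within 5e-10 once turned for the dye swap.

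Here mean intensities were corrected with normexp (offset 50) against the local background, and log2 ratios normalized by loess within arrays, with limma 3.58.1 in R 4.3.3 (files read with data.table, version 1.17.8). Spots of a probe were averaged, outlier flags left out, and probes kept where some group had both arrays well above background in one channel: 22407 probes, 18004 genes by brightest probe, 85 with a missing value. Symbols were updated through RefSeq names for 26412 of 39429 probes. The model held 4 group means and an experiment term, with 3 residual and 3.46 prior degrees of freedom. Tests are two-sided, and calls are at an adjusted p (Benjamini-Hochberg) under 0.05. Day 0 levels were compared over 4 RNAs after Aquantile. A ± is an SE unless SD is named. The experiment number marks a shared biological experiment, and deviations of same-numbered arrays correlated at 0.31 to 0.73. The scripts were tested on simulated data. Named genes were all 8 members and, per pathway list, up to 3 called genes per direction with the largest tamoxifen effect in floxed cells; some are given only in counts. Members, lists and tests were chosen with earlier results of these data known. Alternatives were the deposited log ratios, median centring, scale normalization, no or a strict filter, no experiment term, a random block for the shared day 0 RNA (statmod 1.5.0), the mean of probes, the day 3 channel alone and each array left out. The number of arrays limits the precision.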

Additional observations from a re-analysis of the deposited data

Results flagged for a closer look

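The tamoxifen effect differed between floxed and control cells, by limma's test of the difference itself, for Fabp4 (2.65 ± 0.30, adjusted p = 0.0265) and for Pparg (1.01 ± 0.14, adjusted p = 0.0427). Both experiments gave a positive difference for each gene, 1.98 and 3.33 for Fabp4 and 0.87 and 1.14 for Pparg. Of the 17 alternative settings, 10 kept the call for Fabp4 and 7 kept that for Pparg. The differences ran from 2.35 to 2.95 for Fabp4 and from 0.94 to 1.09 for Pparg.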

How the results depend on the processing

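Of 1223 values of single genes under other settings, 1102 kept their direction and their side of the threshold, 69 lost a call, 25 gained one and 27 turned. The tamoxifen effect on Fabp4 in floxed cells kept its call under all 17 alternatives, from 2.09 to 2.68, that on Pparg under 15, from 0.83 to 0.95, and that on Fabp5 under 14, from 1.03 to 1.47. Leaving out 1 array leaves a group with 1 array, assumed to vary like the others. The cause of the changes below was not tested unless the setting itself shows it.

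The deposited log ratios called 0 of the 8 genes for the difference of the tamoxifen effects (Fabp4 2.68, adjusted p = 0.0584; Pparg 1.01, adjusted p = 0.0762) and 0 for the genotypes without tamoxifen, and turned 2 uncalled values over time, Fabp5 to -0.01 in control cells and Pdk4 to 0.11 in control cells with tamoxifen. Median centring in place of loess gave 1 for the difference (Pparg 0.94, adjusted p = 0.14) and 1 for the genotypes with tamoxifen. The experiment number pairs the samples. Without it as a block, 3 genes were called over time in control cells, 1 for the difference (Pparg 1.01, adjusted p = 0.212), 0 for the genotypes without tamoxifen and 1 with it. The calls so lost over time, by adjusted p, were Angptl4 (0.172) and Plin2 (0.0846) in control cells, Cd36 (0.114) and Pparg (0.132) in control cells with tamoxifen, and Angptl4 (0.0594) in floxed cells with tamoxifen. Between genotypes they were Pparg without tamoxifen (0.144) and Fabp5 with it (0.0555). The mean of probes turned Cpt1a over time to 0.11 in control cells, 0.29 with tamoxifen, 0.12 in floxed cells and 0.35 with tamoxifen, because its second probe went up, and the genotype difference without tamoxifen to 0.01. It turned Cpt2 in control cells to 0.12. Agilent's processed signals turned the day 0 genotype differences of Fabp5 to -0.27 and Plin2 to -0.13, neither called.

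With each array left out in turn, the count of the 8 called over time ran from 2 to 6 in control cells, 1 to 6 with tamoxifen, 3 to 7 in floxed cells and 2 to 6 with tamoxifen. It ran from 1 to 4 for tamoxifen in floxed cells, 0 to 5 for the difference, 0 to 1 for the genotypes without tamoxifen and 0 to 3 with it. Values that changed sign were all uncalled. Over time these were Cd36 (-0.53 to 0.21) and Fabp5 (-0.25 to 0.26) in control cells, Pdk4 in control cells with tamoxifen (-0.19 to 0.07) and in floxed cells (-0.06 to 0.24), and Cd36 (-0.14 to 0.29) and Pdk4 (-0.24 to 0.25) in floxed cells with tamoxifen. For tamoxifen they were Angptl4 (-0.73 to 0.02), Fabp5 (-0.19 to 0.32) and Plin2 (-0.76 to 0.29) in control cells and Pdk4 (-0.33 to 0.16) in floxed cells. Between genotypes they were Cd36 (-0.62 to 0.12) and Plin2 (-0.81 to 0.24) without tamoxifen, and Angptl4 (-0.02 to 0.27) and Pdk4 (-0.18 to 0.31) with it.

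Counts over all genes moved more. With each array left out in turn they ran from 224 to 2379 for tamoxifen in floxed cells, 0 to 0 in control cells, 0 to 284 for the difference, 0 to 156 for the genotypes without tamoxifen and 0 to 3018 with it. Over time they ran from 7270 to 9859 in control cells, 5476 to 11000 with tamoxifen, 5890 to 10975 in floxed cells and 5900 to 11255 with tamoxifen. Tamoxifen in floxed cells called 1624 genes, 470 without the block and 2905 with a random block for the shared day 0 RNA, and in control cells 0, but 27 with median centring. The difference called 205, then 22 without the block, 824 with the random block, 59 from deposited ratios, 378 with median centring and 616 from the day 3 channel. The genotypes without tamoxifen gave 517, then 2 without the block, 5 from deposited ratios and 1808 from the day 3 channel, and with tamoxifen 2026, then 531, 1239 and 3142. At day 0 they gave 61, then 16 without the block, 2 with no filter, 678 from processed signals and 620 without Aquantile, which moved the median of all genes to 0.13.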
